A study of Mus musculus with 14 samples.

Results

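The receptors for R-spondins, Lgr4, Lgr5 and Lgr6, and the membrane E3 ubiquitin ligases Rnf43 and Znrf3 were followed through the histone acetylation and ONECUT2 binding data of mouse small intestinal organoids. Members were taken by position: a region or site belonged to a gene when that gene had the nearest mm10 protein-coding span within 100 kb. This gave 30 of the 55050 H3K27ac regions, 10 of the 7268 listed ONECUT2 sites and 5 of the 15973 protein-coding genes that had a region. All 30 regions passed the filter on low counts. H3K27ac, acetylation of histone H3 at lysine 27, marks active promoters and enhancers. It is not a measure of transcript or protein.

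Wnt proteins bind Frizzled receptors and their LRP co-receptors, which stabilises β-catenin and switches on Wnt target genes. RNF43 and ZNRF3 put ubiquitin on Frizzled receptors and so take them off the cell surface. R-spondins bridge LGR receptors to these ligases and clear the ligases from the membrane, so Wnt receptors stay in place. In the small intestine LGR5 is the classical marker of crypt base stem cells, LGR4 is spread more widely through the crypt, and RNF43 and ZNRF3 are themselves Wnt target genes that limit the stem cell zone.

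The study asked what part the transcription factor ONECUT2 plays when RANKL, the cytokine that drives formation of antigen-sampling microfold (M) cells, directs differentiation of intestinal epithelium. The RANKL arm had 3 days in ENR medium with 2 small molecules, CHIR99021 at 3 µM, which blocks the kinase GSK3 and so activates Wnt signalling, and valproic acid at 1.5 mM, which blocks histone deacetylases, then a day in ENR medium, and then RANKL at 100 ng/mL for 6 days. The control arm was kept in ENR medium, which holds EGF, Noggin and R-spondin 1, so the LGR ligand was supplied in the culture of both arms. Each arm had 3 H3K27ac and 3 ONECUT2 libraries made by ChIPmentation, in which a transposase adds the sequencing adapters to antibody-bound chromatin. The values therefore compare the whole protocol with ENR medium and not RANKL alone. All organoids came from a line of a single female mouse of genotype Lgr5GFPDTR/+, in which an Lgr5 allele carries GFP and the diphtheria toxin receptor, and the count table does not separate the Lgr5 alleles. Replicates were 3 independent differentiation experiments, which the labels number 1 to 3 in each arm, and p-values measure the spread between them.

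H3K27ac libraries held 2745451 to 3902301 reads in regions in the RANKL arm and 5434172 to 9160267 in the control arm, so RANKL values rest on fewer reads. The lowest count of any member region in any library was 6 reads. Over all 15906 genes tested as sums of their regions, 25% were higher and 26.9% lower with RANKL. M cell marker genes carried more H3K27ac in the RANKL arm, with 8 of 10 higher and 0 lower and a summed level of 855 to 937 CPM (read counts scaled to library size) against 409 to 436 in the control arm. Of 6 intestinal stem cell markers, 1 was higher and 4 lower, with a sum of 490 to 510 CPM in the RANKL arm and 574 to 619 CPM in the control arm. The higher one was Olfm4, which was lower, at a log2 fold of -1.14, over its regions within 10 kb alone. Of 10 epithelial markers, 3 were higher and 7 lower, with sums of 2335 to 2432 CPM in the RANKL arm and 2413 to 2651 CPM in the control arm. Markers of Paneth cells (1 of 4 tested higher, 0 lower) summed to 83.9 to 92.9 CPM in the RANKL arm and 57.8 to 62.0 CPM in the control arm. Mesenchymal markers (5 of 9 higher, 0 lower) summed to 344 to 365 CPM in the RANKL arm and 271 to 280 CPM in the control arm, endothelial markers (4 higher and 3 lower of 7) to 517 to 525 against 466 to 481 CPM, and leukocyte markers (4 of 5 tested higher, 0 lower) to 167 to 182 against 122 to 139 CPM. The T cell gene Cd3e had no region. How much the share of each cell type contributed to the values below was not tested, and fewer cells carrying the mark and less of it per cell cannot be told apart in bulk chromatin.

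Promoter windows are shown for the members that RefSeq lists in the table used here (GRCm38.p6, the mm10 assembly), because H3K27ac regions lay over the starts of Lgr4 and Rnf43 while none overlapped the window of Lgr6. Each window holds the 250 bases before the start, and capitals mark CG dinucleotides.
Lgr4 (chr2:109917397-109917646, plus strand): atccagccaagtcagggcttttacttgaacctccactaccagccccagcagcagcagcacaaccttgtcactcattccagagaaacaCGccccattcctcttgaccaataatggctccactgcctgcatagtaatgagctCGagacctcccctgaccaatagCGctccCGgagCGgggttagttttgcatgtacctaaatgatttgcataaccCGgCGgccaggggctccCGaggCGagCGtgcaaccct
Rnf43 (chr11:87662837-87663086, plus strand): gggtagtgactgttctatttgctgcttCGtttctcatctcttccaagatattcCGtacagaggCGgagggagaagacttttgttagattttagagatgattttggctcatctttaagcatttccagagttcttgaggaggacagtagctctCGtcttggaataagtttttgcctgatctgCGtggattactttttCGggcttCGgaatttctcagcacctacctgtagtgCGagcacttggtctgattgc
Lgr6 (chr1:135105277-135105526, minus strand): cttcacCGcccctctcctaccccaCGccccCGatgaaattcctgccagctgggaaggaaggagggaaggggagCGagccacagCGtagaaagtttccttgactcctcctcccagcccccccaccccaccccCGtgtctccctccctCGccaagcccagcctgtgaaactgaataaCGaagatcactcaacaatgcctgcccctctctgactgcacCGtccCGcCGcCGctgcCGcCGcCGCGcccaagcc
The Lgr4 window held 10 CG dinucleotides and the Rnf43 window 8, against a median of 6 over 32851 windows. A second Rnf43 start in the table, inside the gene (chr11:87699647-87699896, not shown), held 2, and no H3K27ac region overlapped it. The Lgr6 window held 16, more than 74.6% of windows, yet no H3K27ac region overlapped it. The ONECUT letters ATCGAT or ATCAAT, read on both strands, stand in 7.40% of all windows and in none of these 3. The TCF/LEF letters CTTTGAA or CTTTGAT stand in 7.48% of all windows and in none of these 3.

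Among the 30 regions, 5 were higher and 13 lower with RANKL at an adjusted p under 0.05 in edgeR's quasi-likelihood test, and 12 were not called. Over all 54765 regions tested, 14.8% were higher and 21% lower. The median log2 fold (RANKL over control) was -0.24 over the 30 regions and 0.06 over all regions. In 14 regions every RANKL library lay below every control library, a pattern found in 24.2% of all regions, and in 5 regions every RANKL library lay above, a pattern found in 20.6%. The 13 lower calls were made up of 6 at Lgr5, 4 at Rnf43 and 3 at Znrf3. The 5 higher calls were 2 at Lgr4 and 1 each at Lgr5, Lgr6 and Znrf3. Of the 5 higher calls, 2 remained without RANKL replicate 3. With a fold of more than 1.5 required, 0 were higher and 7 lower, against 5.5% and 4.77% of all regions. Those 7 were the 6 lower regions of Lgr5 and Znrf3 region 4.

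**Figure D1:**
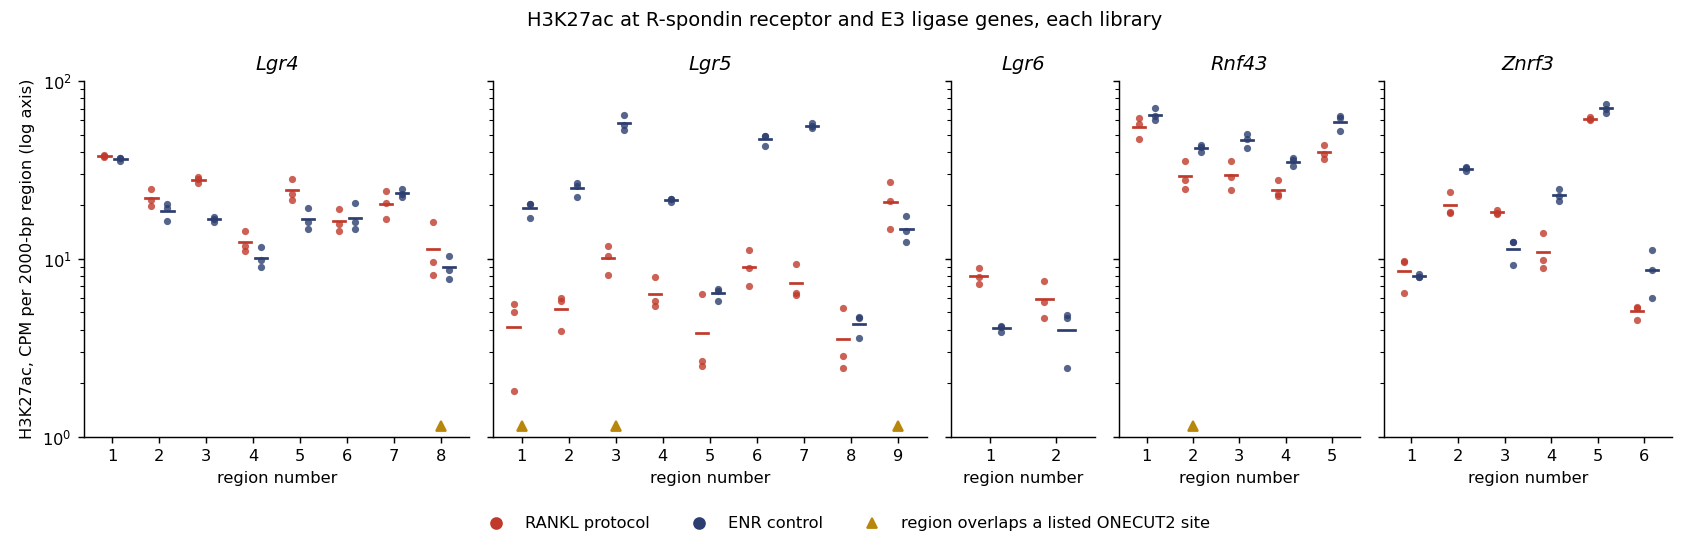
H3K27ac in CPM (log axis) of every region of the 5 genes, numbered by rising coordinate, with a point for each library and a bar for the mean of 3. The inner Lgr5 regions other than region 5 separate the arms most widely. Of the regions at gene ends, Lgr5 region 7 was lower, and Rnf43 region 1, Znrf3 regions 1 and 5 and Lgr4 regions 1 and 8 were not called. Triangles mark regions that overlap a listed ONECUT2 site.

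Lgr5, the stem cell receptor, lost H3K27ac at 6 of the 7 regions inside its gene. Those 7 regions inside its span (chr10:115450314-115587780) summed to 45.0, 48.3 and 44.9 CPM in the RANKL libraries, against 245, 218 and 236 CPM in the control libraries. All 9 regions of the locus, summed and scaled at gene level, gave 68.6, 79.2 and 87.7 CPM in the RANKL libraries and 260, 245 and 253 CPM in the control libraries. The groups lay far apart, with a log2 fold of -1.67 ± 0.07 (SE, n = 3 each, edgeR adjusted p = 8.32e-34), a 3.18-fold lower level. It ranked 20 from the lowest fold of 15906 genes tested. Over these genes, 25% were higher and 26.9% lower.

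The loss was deepest at the upper-coordinate end of the gene. Lgr5 region 7 (chr10:115585614-115587614), which ends 0.166 kb inside the span, held 6.43, 9.36 and 6.27 CPM with RANKL and 58.2, 54.2 and 56.1 CPM in controls. Its log2 fold of -2.93 ± 0.16 (edgeR adjusted p = 1.81e-56), 7.63-fold lower, was the lowest of all 54765 regions tested. Region 3 (chr10:115504935-115506935), the strongest Lgr5 region in controls, held 10.4, 8.15 and 11.8 CPM with RANKL and 64.4, 53.1 and 56.3 CPM in controls, a log2 fold of -2.49 ± 0.15 (edgeR adjusted p = 8.19e-49). Region 1 (chr10:115483832-115485832) held 5.00, 1.81 and 5.55 CPM with RANKL and 20.3, 16.9 and 20.4 CPM in controls, a log2 fold of -2.18 ± 0.25 (edgeR adjusted p = 3.08e-16). In all 3 regions every RANKL library lay below every control library. Regions 2, 4 and 6 were also lower, with log2 folds of -2.21, -1.77 and -2.39. These 6 calls held in all 13 alternatives run. Region 5, between regions 4 and 6, was weak in both arms, at 2.50, 6.34 and 2.65 CPM with RANKL and 5.80, 6.60 and 6.75 CPM in controls, and missed the threshold (log2 fold -0.74 ± 0.36, edgeR adjusted p = 0.0930). It was called lower in 3 of 13 alternatives: without RANKL replicate 2 (-1.30), with the trend of fold with signal removed (-1.01, edgeR adjusted p = 0.0163) and with limma (adjusted p = 0.0284).

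Beyond the upper end of the gene the pattern was different. Region 9 (chr10:115624005-115626005), 36.2 kb outside the span, held 14.6, 21.1 and 27.01 CPM with RANKL and 12.4, 17.5 and 14.3 CPM in controls. The groups overlapped, and the log2 fold was 0.51 ± 0.17 (edgeR adjusted p = 0.0114). That call was lost in 5 of 13 alternatives: without RANKL replicate 3 the log2 fold was 0.27 (edgeR adjusted p = 0.354), without control replicate 1 it was 0.41 (adjusted p = 0.0844), DESeq2 and limma gave adjusted p of 0.0850 and 0.0880, and a minimum fold of 1.5 was not passed. Region 8, 28.9 kb outside, held 2.86, 2.42 and 5.31 CPM with RANKL and 4.64, 4.73 and 3.56 CPM in controls (log2 fold -0.26 ± 0.40, adjusted p = 0.665). Region 9 made up 23.4% to 35% of the counts of the Lgr5 locus in RANKL libraries and 4.72% to 7.28% in control libraries. The gene next nearest to region 9 is A930009A15Rik, which lies inside the Lgr5 span, 41.6 kb away.

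Whether a region moved differently from the rest of its gene was tested with edgeR's region-against-gene comparison over all genes with at least 2 regions, where 25.2% of 41329 regions differed. Of the 30 member regions, 10 differed from their locus, 6 of them at Lgr5. Regions 7, 3 and 6 of Lgr5 fell further than the locus as a whole, by -1.10 (adjusted p = 6.42e-08), -0.66 (adjusted p = 7.27e-04) and -0.56 (adjusted p = 0.0108) on the log2 scale. The locus here takes in regions 8 and 9, outside the gene, at log2 folds of -0.26 and 0.51. A comparison with the inner regions alone was not made. Region 9 lay 2.35 above the fold of the locus (adjusted p = 8.78e-32), region 8 lay 1.58 above it (adjusted p = 0.00128) and region 5 lay 1.09 above it (adjusted p = 0.0184). The calls of regions 6 and 8 were lost without RANKL replicate 3 (-0.30, adjusted p = 0.353, and 1.19, adjusted p = 0.103). The call of region 5 was lost without RANKL replicate 2 (0.55, adjusted p = 0.464) or control replicate 1 (1.01, adjusted p = 0.0665).

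**Figure D2:**
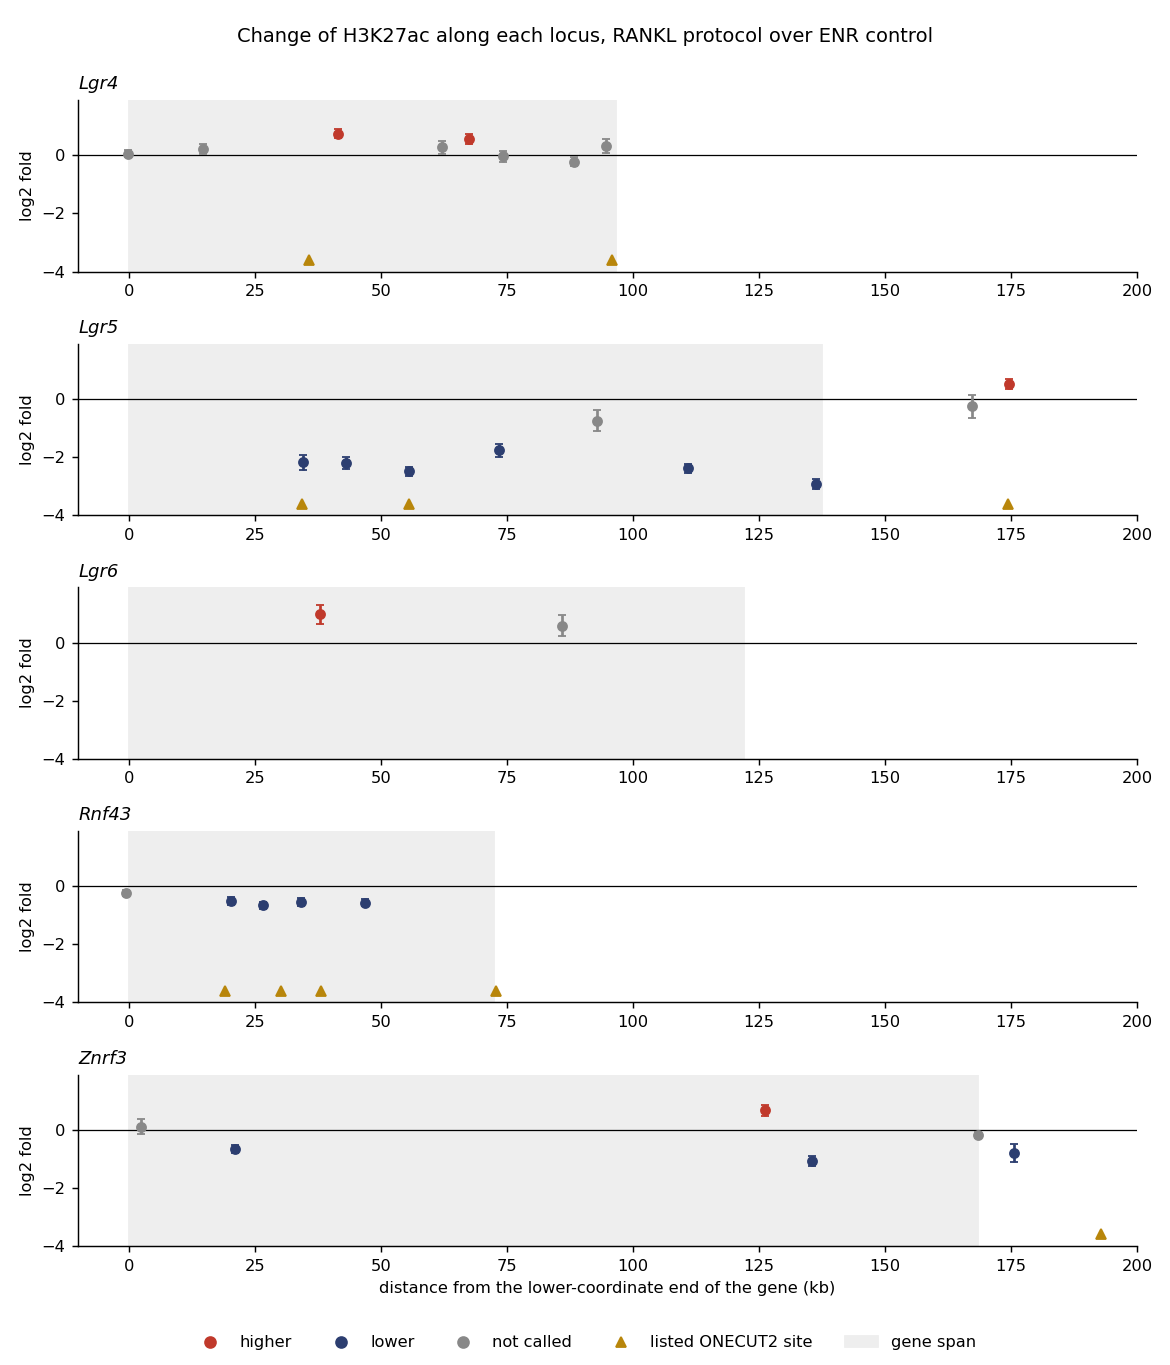
Log2 fold of H3K27ac (RANKL over control) with its standard error for each region, against the distance in kb from the lower-coordinate end of each gene, with the gene span shaded and listed ONECUT2 sites as triangles. Red marks regions higher with RANKL, blue marks lower and grey marks regions not called. Inside Lgr5 the regions run from -0.74 to -2.93, and region 9 outside it stands at 0.51.

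Lgr4, the widely expressed R-spondin receptor, carried more H3K27ac with RANKL at 2 of its 8 regions, while the region over its start missed the threshold. The 8 regions of Lgr4 (chr2:109917647-110014257) summed at gene level to 199, 181 and 195 CPM with RANKL and 158, 148 and 138 CPM in controls. Every RANKL library lay above every control library, with a log2 fold of 0.37 ± 0.06 (SE, n = 3 each, edgeR adjusted p = 1.24e-06). Region 1 (chr2:109916586-109918586), which covers the printed Lgr4 promoter window and had the highest level at this gene, held 38.2, 37.7 and 37.6 CPM with RANKL and 36.7, 37.0 and 35.6 CPM in controls (log2 fold 0.05 ± 0.12, edgeR adjusted p = 0.785). It was called higher, at 0.36 (adjusted p = 0.00803), when the trend of fold with signal was removed. Region 3 (chr2:109958241-109960241) held 26.8, 28.7 and 28.2 CPM with RANKL and 16.0, 16.8 and 17.3 CPM in controls, with no overlap and a log2 fold of 0.74 ± 0.16 (edgeR adjusted p = 1.80e-05).

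The second called Lgr4 region, region 5 (chr2:109984130-109986130), held 23.2, 21.4 and 28.2 CPM with RANKL and 19.3, 14.6 and 16.1 CPM in controls, a log2 fold of 0.57 ± 0.16 (edgeR adjusted p = 0.00217). Without RANKL replicate 3 its log2 fold was 0.43 (adjusted p = 0.0691). Region 7 held 23.9, 20.5 and 16.6 CPM with RANKL and 24.5, 23.2 and 22.3 CPM in controls (log2 fold -0.22, adjusted p = 0.291). Region 8, at the upper end of the gene, held 16.1, 8.15 and 9.65 CPM with RANKL and 10.4, 8.69 and 7.69 CPM in controls, and the groups overlapped (log2 fold 0.31 ± 0.24, adjusted p = 0.334). Relative to the Lgr4 locus, region 3 stood 0.52 higher (adjusted p = 0.0058) and region 7 stood -0.44 lower (adjusted p = 0.0252). Both of these were near the threshold: the first had an adjusted p of 0.0519 without control replicate 1, and the second was lost without RANKL replicate 3 (-0.30, adjusted p = 0.246), control replicate 2 or control replicate 3. The other 3 regions had log2 folds of -0.03 to 0.27, and none was called.

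Lgr6, the third receptor, is known mainly from skin and hair follicle stem cells, and here had weak H3K27ac. Its 2 regions, both inside the span (chr1:134983300-135105374), summed at gene level to 13.7, 14.3 and 18.6 CPM with RANKL and 8.64, 8.97 and 6.53 CPM in controls. The groups did not overlap, with a log2 fold of 0.95 ± 0.24 (edgeR adjusted p = 6.03e-04). Region 1 (chr1:135020284-135022284) held 7.85, 7.25 and 8.92 CPM with RANKL and 3.86, 4.18 and 4.13 CPM in controls, against a median over all regions of 9.47 CPM with RANKL and 8.52 CPM in controls. Its log2 fold was 0.98 ± 0.33 (edgeR adjusted p = 0.0111), a call lost without RANKL replicate 3 (0.88, adjusted p = 0.0706) or once the trend of fold with signal was taken out (0.74, adjusted p = 0.0621). Region 2 held 4.64, 5.74 and 7.48 CPM with RANKL and 4.83, 4.62 and 2.44 CPM in controls (log2 fold 0.59 ± 0.36, adjusted p = 0.204).

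Rnf43, the first of the ligase genes, lost H3K27ac at 4 of its 5 regions, by less than Lgr5. Its 5 regions summed at gene level to 196, 213 and 186 CPM with RANKL and 258, 235 and 252 CPM in controls, with no overlap and a log2 fold of -0.32 ± 0.06 (SE, n = 3 each, edgeR adjusted p = 2.38e-06). Region 1 (chr11:87661559-87663559), which covers the printed Rnf43 window at the gene start, held 57.1, 61.9 and 47.3 CPM with RANKL and 70.1, 60.3 and 63.9 CPM in controls. The groups overlapped there, and the log2 fold of -0.23 ± 0.11 (adjusted p = 0.104) missed the threshold, but was called without RANKL replicate 2 (-0.32, adjusted p = 0.0484) or control replicate 2 (-0.28, adjusted p = 0.0378). Region 3 (chr11:87688620-87690620) held 35.3, 24.5 and 28.9 CPM with RANKL and 50.4, 42.1 and 47.4 CPM in controls, a log2 fold of -0.66 ± 0.13 (edgeR adjusted p = 2.30e-06). Region 2 (chr11:87682273-87684273) held 24.6, 35.3 and 27.7 CPM with RANKL and 42.5, 39.8 and 43.7 CPM in controls, a log2 fold of -0.51 ± 0.13 (edgeR adjusted p = 3.63e-04). Regions 4 and 5 had log2 folds of -0.53 and -0.56, and no Rnf43 region differed from the rest of its locus. Regions 2 and 4 were no longer called when the trend of fold with signal was removed (-0.20, adjusted p = 0.214, and -0.25, adjusted p = 0.161).

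Znrf3, the second ligase gene, held neighbouring regions that moved in opposite directions. Region 3 (chr11:5401514-5403514) held 18.9, 17.8 and 18.1 CPM with RANKL and 9.28, 12.4 and 12.4 CPM in controls, a log2 fold of 0.67 ± 0.19 (edgeR adjusted p = 0.00266). Region 4 (chr11:5410835-5412835) held 8.93, 13.9 and 9.89 CPM with RANKL and 22.6, 24.8 and 21.2 CPM in controls, a log2 fold of -1.07 ± 0.19 (edgeR adjusted p = 1.18e-07). The groups did not overlap in either region. Relative to the Znrf3 locus, region 3 stood 0.97 higher (adjusted p = 1.42e-05) and region 4 stood -0.77 lower (adjusted p = 3.99e-04), and both calls held in the alternatives run for them.

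At the upper end of Znrf3, region 5 (chr11:5443894-5445894) had the highest level of all 30 member regions, at 62.8, 60.4 and 61.2 CPM with RANKL and 70.0, 66.3 and 74.3 CPM in controls. Every RANKL library lay below every control library, but the log2 fold of -0.19 ± 0.11 (edgeR adjusted p = 0.187) missed the threshold. Region 1, at the lower end, held 6.43, 9.66 and 9.65 CPM with RANKL and 7.92, 8.25 and 7.88 CPM in controls (log2 fold 0.11 ± 0.26, adjusted p = 0.781). Region 2 was lower, at 18.2, 18.4 and 23.6 CPM with RANKL and 32.3, 32.9 and 31.1 CPM in controls (log2 fold -0.66 ± 0.15, edgeR adjusted p = 4.52e-05). Region 6, 6.16 kb outside the span, had a log2 fold of -0.80 ± 0.30 (adjusted p = 0.0236), a call lost in 5 of 13 alternatives, among them leaving out control replicate 2 (-0.52, adjusted p = 0.276). Summed at gene level, Znrf3 (chr11:5276329-5444847) held 132, 137 and 145 CPM with RANKL and 150, 159 and 152 CPM in controls, a log2 fold of -0.15 ± 0.07 (edgeR adjusted p = 0.0569).

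Gene sums were scaled by factors of their own, which puts every gene-level log2 fold 0.15 above its value on the scale of the regions. Both scalings are relative, so a gain or loss holds only against the other genes or regions. Which of the scalings is right was not tested. With the region factors the sums gave log2 folds of 0.22 for Lgr4, -1.82 for Lgr5, 0.80 for Lgr6, -0.47 for Rnf43 and -0.30 for Znrf3, and all 5 were then called, Znrf3 with an adjusted p of 4.39e-04. Sums over regions within 2 kb of gene ends alone were also scaled on their own. The counts of Rnf43 region 1, the only end region of that gene, gave 0.10 (adjusted p = 0.390) there and -0.23 among all regions. The ends of Znrf3 gave 0.18 (adjusted p = 0.0790) there, while its end regions 1 and 5 stood at 0.11 and -0.19 among all regions. Ratios between genes of the same library do not depend on this scaling. The log2 ratio of Lgr4 to Lgr5 was 1.29 ± 0.21 with RANKL and -0.77 ± 0.09 in controls (SD, n = 3 each), a difference of 2.06. The log2 ratio of Lgr5 to Rnf43 was -1.34 ± 0.23 with RANKL and 0.03 ± 0.03 in controls, and that of Lgr5 to Znrf3 was -0.82 ± 0.11 with RANKL and 0.72 ± 0.09 in controls. The log2 ratio of Rnf43 to Znrf3 was 0.52 ± 0.14 with RANKL and 0.69 ± 0.12 in controls, and these overlapped (exact two-sided permutation p = 0.3). Of 10 pairs compared, the other 9 reached an exact p of 0.1, the smallest that 3 against 3 libraries can give, and an adjusted p of 0.111 over the 10 pairs, so no ratio could pass the threshold.

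In mean level per 2000-bp region, which sets all genes on the same length, the order with RANKL was Rnf43 (35.7 ± 2.95 CPM, SD, n = 3), Lgr4 (21.6 ± 1.09 CPM), Znrf3 (20.7 ± 0.60 CPM), Lgr5 (7.83 ± 0.83 CPM) and Lgr6 (6.98 ± 1.06 CPM). The libraries of Lgr4 and Znrf3 overlapped there, as did those of Lgr5 and Lgr6. In controls it was Rnf43 (49.6 ± 3.08 CPM, SD, n = 3), Lgr5 (28.0 ± 1.23 CPM), Znrf3 (25.5 ± 0.43 CPM), Lgr4 (18.5 ± 1.30 CPM) and Lgr6 (4.01 ± 0.63 CPM), and no neighbours in that order overlapped. The genes most like each member in their profile over the 6 libraries were named by the smallest root mean square difference of centred log2 CPM. For Lgr5 they were Galnt7 (0.083), Sp9 (0.088) and Egr2 (0.095), and for Lgr4 they were Slc4a1ap (0.028), Kif2c (0.029) and Nrbf2 (0.029). For Lgr6 they were Gm6590 (0.051), Zfp131 (0.069) and Mup21 (0.072), for Rnf43 they were Ankrd17 (0.016), Ypel3 (0.018) and Ak3 (0.019), and for Znrf3 they were Rps21 (0.026), Mtres1 (0.026) and Mon2 (0.029).

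ONECUT2, a homeodomain transcription factor, had listed sites at 4 of the 5 members: 4 at Rnf43, 3 at Lgr5, 2 at Lgr4 and 1 at Znrf3, while Lgr6 had none. Of genes with an H3K27ac region, 26.9% had a listed site. The 4 members with a site had 5 to 9 regions each, against a median of 2 over genes with a region. The share over all genes is not matched for this. All 10 sites were higher with RANKL in the authors' deposited table, which lists only sites past an FDR of 0.0496 and in which 99.9% of sites are higher with RANKL, so the listing all but fixes the direction. The strongest gain in bound reads was at Lgr4 site 1 (chr2:109953201-109953601), with a mean of 110.7 normalised reads with RANKL and 17.2 in controls in the authors' deposited table (log2 fold 2.60, FDR 8.50e-17). It lies 4.64 kb from Lgr4 region 3, the region whose H3K27ac rose most at this gene. At Lgr4 site 2, in region 8, the authors' deposited table gives 18.2 reads with RANKL and 2.37 in controls (log2 fold 2.67).

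The sites inside Lgr5 held many reads in controls already and had small folds among the listed sites. At Lgr5 site 2 (chr10:115505692-115506092), inside region 3, the authors' deposited table gives 97.0 reads with RANKL and 59.0 in controls, a log2 fold of 0.71 (FDR 0.00222). Of 7268 listed sites it ranked 158 by control level and 7221 by fold in the authors' deposited table. Lgr5 site 1 (chr10:115484573-115484973), inside region 1, had 43.6 reads with RANKL and 19.3 in controls (log2 fold 1.14, FDR 7.42e-04), and ranked 901 by control level and 6633 by fold in the authors' deposited table. In both regions ONECUT2 reads were higher with RANKL while H3K27ac was lower by log2 folds of -2.49 and -2.18. At Lgr5 site 3, inside region 9 beyond the gene, the authors' deposited table gives 13.0 reads with RANKL and 3.50 in controls (log2 fold 1.70, FDR 0.00402), against an H3K27ac log2 fold of 0.51 there. The median log2 fold of all listed sites was 1.86.

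Rnf43 also had a gained ONECUT2 site in a region with lower H3K27ac, and its other sites overlap no region. In the authors' deposited table, site 1 had 23.7 reads with RANKL and 4.16 in controls (log2 fold 2.32) and overlaps region 2, where H3K27ac fell by 0.51. That H3K27ac call was lost with the signal trend removed (-0.20, edgeR adjusted p = 0.214). Sites 2 and 3 had 63.7 and 60.7 reads with RANKL and 15.6 and 14.3 in controls in the authors' deposited table, at log2 folds of 1.98 and 1.99. They lie 2.46 kb from region 3 and 2.61 kb from region 4. Site 4 (chr11:87735821-87736221), just beyond the upper end of Rnf43, had 28.7 reads with RANKL and 2.65 in controls in the authors' deposited table. Its log2 fold of 3.15 ranked 440 of 7268, and the nearest H3K27ac region is 24.8 kb away. At Znrf3, the only site lies outside the span, 16.0 kb from region 6, with 19.7 reads with RANKL and 6.71 in controls in the authors' deposited table (log2 fold 1.44).

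Of the 30 member regions 5 overlapped a listed site, and over all regions 5.32% did. Of those 5, 3 were lower, 1 was higher and 1 was not called. Over all tested regions that overlap a site, 22.6% were higher and 26.3% lower, and over the other regions 14.4% were higher and 20.7% lower. No ONECUT2 value per library was used here, so these sites have no replicate values of their own.

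**Figure D3:**
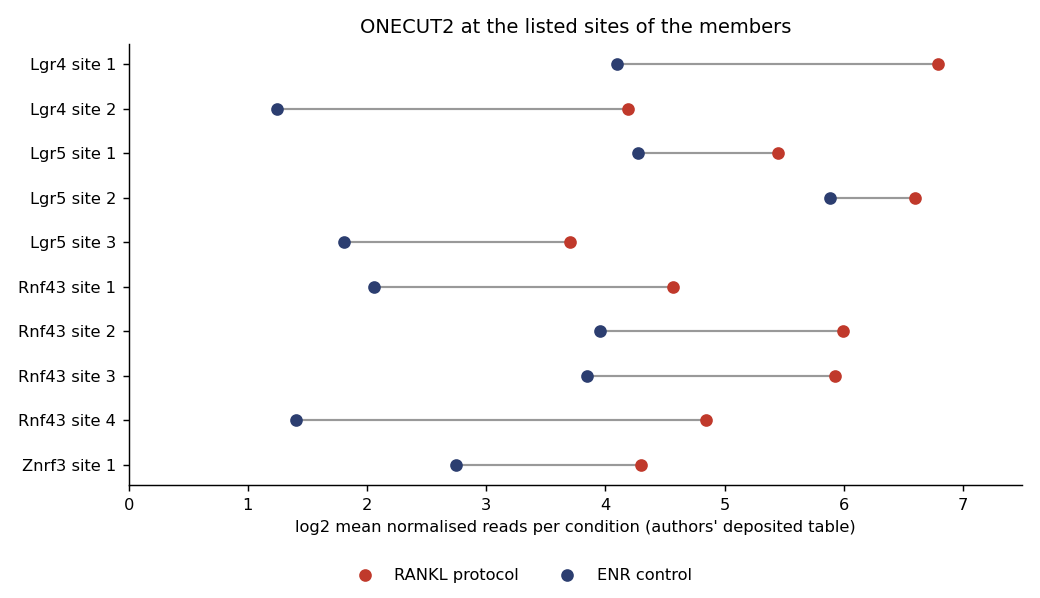
Mean normalised ONECUT2 reads on the log2 scale in the RANKL arm (red) and in controls (blue) at the 10 listed sites, from the authors' deposited table, with a line joining the arms. Lgr5 site 2 has the highest control level and the shortest line (log2 fold 0.71), and Rnf43 site 4 has the longest (log2 fold 3.15).

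The rest of the pathway was described in 7 lists by role. Of 82 genes listed, 78 were tested as gene sums, 16 were higher, 21 lower and 41 not called, against 25% higher and 26.9% lower over all genes, and Fzd3, Dvl2, Notum and Dkk4 had no region. With the region factors, which move the median of all genes from 0.01 to -0.14, 9 were higher and 34 lower, against 16.2% higher and 38.5% lower over all genes, so directions below hold relative to the gene-level scale. Sums at gene ends alone have yet another scaling, on which Rnf43 region 1 stood at 0.10 against -0.23 among all regions. Folds at gene ends below are therefore not on the gene-level scale. The R-spondins, ligands of the receptors above, had weak H3K27ac, and 1 of 4 was called. Rspo3 held 11.6 ± 1.9 CPM with RANKL and 6.50 ± 1.26 CPM in controls (SD, n = 3 each; log2 fold 0.80 ± 0.27, adjusted p = 0.0114), a call lost without RANKL replicate 2 (adjusted p = 0.0772), with the signal trend removed and within 10 kb. The median log2 fold of the 4 was 0.47, against 0.01 over all genes.

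Among Wnt receptors, the proteins that RNF43 and ZNRF3 act on or beside, 2 of 14 tested were higher and 4 lower, with a median log2 fold of 0.14. The LRP co-receptors differed in direction: Lrp6 rose by 0.42 ± 0.06 (edgeR adjusted p = 4.44e-09), at 227 ± 13.1 CPM with RANKL and 169 ± 3.34 CPM in controls, and Lrp5 fell by 0.28 ± 0.05 (adjusted p = 8.63e-07), at 354 ± 33.7 CPM with RANKL and 431 ± 16.5 CPM in controls. At gene ends alone, on their own scaling, Lrp6 stood at 0.89 and Lrp5 at -0.07, not called (adjusted p = 0.573). How much of the difference from the gene-level folds is due to that scaling was not tested. The Frizzled genes Fzd9 and Fzd2 fell by 0.94 ± 0.14 and 0.74 ± 0.17, and Fzd5, Fzd6 and Fzd7 had log2 folds of 0.16, 0.30 and 0.13 that missed the threshold. The alternative Wnt receptor Ror2 fell by 0.69 ± 0.08 (adjusted p = 1.42e-11), and Ryk had a log2 fold of 0.28 ± 0.08 that was not called with the region factors and stood at -0.20 at gene ends alone.

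Of 11 genes for Wnt ligands and their release, 3 were higher and 2 lower, with a median log2 fold of -0.05. Wnt4 rose by 0.92 ± 0.10 (edgeR adjusted p = 3.28e-12), at 71.9 ± 3.94 CPM with RANKL and 38.1 ± 1.91 CPM in controls. Porcn, which attaches the lipid that Wnt proteins need for secretion, fell by 0.83 ± 0.26 (adjusted p = 0.0059), a call lost without RANKL replicate 3 (-0.64, adjusted p = 0.0663) or control replicate 2 (-0.64, adjusted p = 0.0752). Wnt11 and Wls had log2 folds of 0.35 and 0.22 that were not called with the region factors, and the Wls call was also lost when any library but RANKL replicate 1 was left out (lowest log2 fold 0.17). Over regions within 10 kb Wnt11 stood at 0.05 (edgeR adjusted p = 0.874). Wnt7b had a log2 fold of -0.17 over its regions within 100 kb but 1.17 over those within 10 kb, and its call was lost without RANKL replicate 1, RANKL replicate 3 or control replicate 1 (adjusted p up to 0.116). In the relay and destruction complex, which degrades β-catenin in the absence of Wnt, 2 of 11 tested were higher and 2 lower, with a median log2 fold of -0.13. The casein kinase gene Csnk1a1 rose by 0.36 ± 0.05 (adjusted p = 8.09e-09) and Csnk1e fell by 0.28 ± 0.09 (adjusted p = 0.00530). Neither call held everywhere: Csnk1a1 stood at 0.14 (adjusted p = 0.139) within 10 kb and Csnk1e at -0.17 (adjusted p = 0.474) at gene ends, on their own scaling. Gsk3b had a log2 fold of 0.16 that was not called with the region factors or without RANKL replicate 2 (0.11, adjusted p = 0.125). Dvl1 had one of -0.24 (adjusted p = 0.0490) that was not called with the experiments as blocks or without RANKL replicate 3 or any control library.

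Of 9 nuclear effectors, 3 were higher and 1 lower, with a median log2 fold of 0.07. The β-catenin partner Bcl9 rose by 0.31 ± 0.05 (edgeR adjusted p = 1.32e-06) and its partner Pygo2 had a log2 fold of -0.33 ± 0.13 (adjusted p = 0.0311), a call lost in 7 alternatives, among them leaving out RANKL replicate 1, RANKL replicate 3 or control replicate 3 (-0.25, adjusted p = 0.172). Ctnnb1, which encodes β-catenin, had a log2 fold of 0.15 that was not called with the region factors or without RANKL replicate 2 or control replicate 2, and the co-repressor gene Tle3 had 0.35 over all its regions but -0.44 at gene ends. Among feedback genes and inhibitors, 3 of 13 tested were higher and 4 lower, with a median log2 fold of 0.10. Axin2, a feedback target of β-catenin like Rnf43 and Znrf3, rose by 0.49 ± 0.05 (adjusted p = 5.51e-13), at 324 ± 17.4 CPM with RANKL and 231 ± 1.17 CPM in controls. At gene ends alone, on their own scaling, Axin2 stood at -0.05. Tnfrsf19 rose by 0.88 ± 0.08 (adjusted p = 7.72e-15), and Apcdd1 had a log2 fold of 0.52 ± 0.19 that was not called with the region factors or without RANKL replicate 3 (0.32, adjusted p = 0.246), control replicate 1 or control replicate 3. Sfrp5, Kremen1, Nkd1 and Dkk3, which code for Wnt antagonists or feedback inhibitors, fell by 0.82, 0.50, 0.47 and 0.32, and Nkd1 and Dkk3 were not called within 10 kb (adjusted p = 0.0633 and 0.0682).

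Of 16 intestinal stem cell and Wnt target genes, 2 were higher and 8 lower, with a median log2 fold of -0.18. Ascl2, a transcription factor of crypt base stem cells, fell by 0.86 ± 0.15 (edgeR adjusted p = 1.14e-06), Cdca7 by 0.61 ± 0.08 (adjusted p = 1.98e-09), Rgmb by 0.50 ± 0.07 (adjusted p = 2.81e-09) and Cd44 by 0.41 ± 0.06 (adjusted p = 6.11e-08). Sox9, Myc, Smoc2 and Ephb2 also fell, by 0.32, 0.22, 0.18 and 0.14. Lgr5 at -1.67 stood below every gene of the 7 lists. The stem cell marker Olfm4 had a log2 fold of 0.69 over its regions within 100 kb but -1.14 over those within 10 kb, and Msi1 one of 0.22 that was not called with the region factors, with the experiments as blocks or without RANKL replicate 1, RANKL replicate 3, control replicate 1 or control replicate 3.

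**Figure D4:**
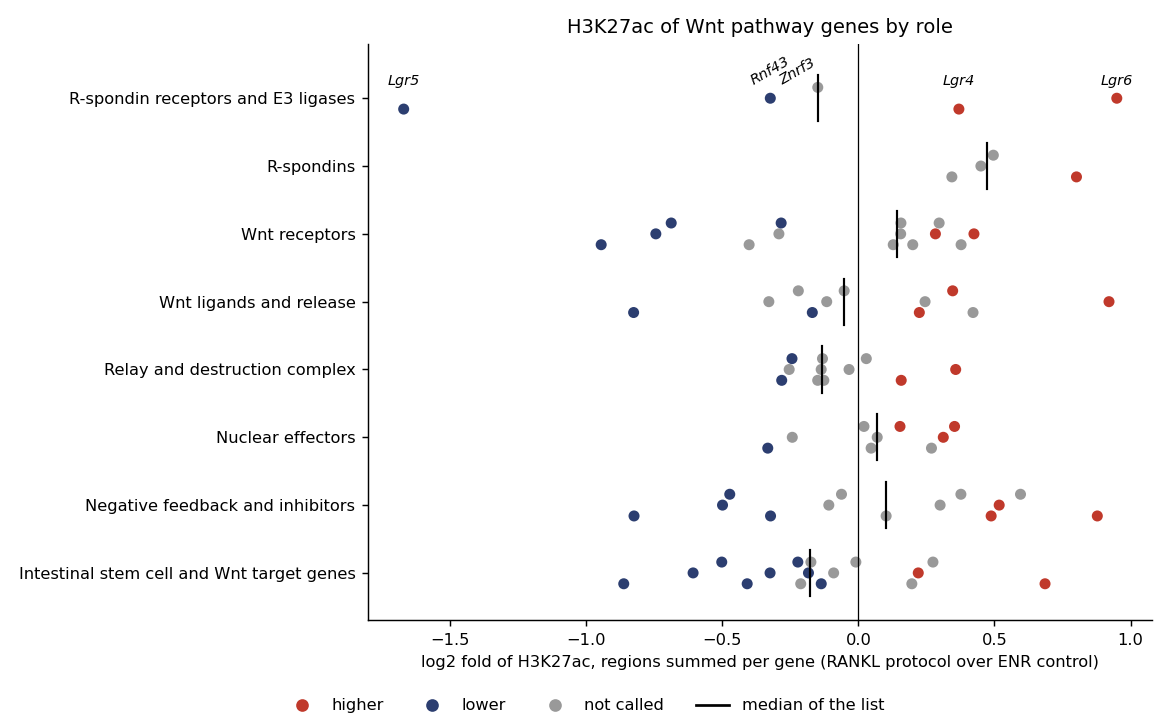
Log2 fold of H3K27ac (RANKL over control), regions summed per gene, for the 5 receptor and ligase genes in the top row and for each list of Wnt pathway genes below it. A point is a gene, red where higher, blue where lower and grey where not called, and a bar is the median of the row. Lgr5 at -1.67 lies left of every other point, and Lgr6 at 0.95 right of them.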

How the data were processed

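H3K27ac and ONECUT2 were measured by ChIPmentation. The authors deposited whole-number read counts for 55050 H3K27ac regions of 2000 bp. A second H3K27ac table, deposited by the authors as normalised, holds a score with mean 0 and SD 1 in each library and was used in 1 alternative. The authors' deposited ONECUT2 table gives log2 mean reads per condition, a log2 fold change, a p-value and its FDR, per the file headers, for each site, without values per library. The submitters' processing notes name the build mm10 and the tool DiffBind. Aligner, peak calling, handling of duplicates and versions: not given in the sources used here. Input libraries were not analysed here. Coordinates are as deposited.

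Regions and sites were assigned to the nearest of 21887 RefSeq protein-coding spans of the matching assembly within 100 kb, which placed 86.7% of regions. A region may act on another gene than the nearest, and gene spans do not resolve exons. Region counts and counts summed per gene were tested with edgeR 4.0.16 (R 4.3.3): TMM scaling, filterByExpr, quasi-likelihood test and Benjamini-Hochberg adjustment over all regions or genes, called at an adjusted p under 0.05. A region was set against its locus with edgeR's diffSpliceDGE. CPM are counts scaled to the TMM-adjusted library total, and intervals and errors cover the spread between libraries. Ratios between members were tested by exact two-sided permutation of 20 arrangements. The code was tested on simulated data. Alternatives were DESeq2 1.42.0, limma 3.58.1 on the score table, other scalings, filters, windows, a minimum fold of 1.5, a replicate block and leaving out each library. The scaling of gene sums with the region factors was added after the data were seen.

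Per the labels' descriptions, libraries of each arm are numbered experiment 1 to 3, so a fit with experiment as a block was run, although the data show no pairing. Deviations of same-numbered libraries correlated by 0.014, -0.027 and -0.0073 across genes, and the highest value of unlike numbers was 0.047. Libraries of a group differed by more than sampling noise (chi-square per degree of freedom 1.79 to 2.06).

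The members and lists were chosen with earlier results of these data known. Values in every library are given for each member's strongest region, its regions with the smallest adjusted p in each direction, those within 2 kb of a gene end and those overlapping a listed site, and for some others chosen after their values were seen. Pathway genes named are up to 4 called genes per list and direction with the smallest adjusted p. Fzd5, Fzd6, Fzd7, Sox9, Myc, Smoc2 and Ephb2 were named after their values were seen, and CG dinucleotides were marked after the windows were seen. A comparison of proteins, planned, was not made here. Promoter windows come from RefSeq (GRCm38.p6) and matched 3 members.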

Additional observations from a re-analysis of the deposited data

How the results depend on the processing

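Direction and call of the Lgr4, Lgr5 and Lgr6 sums held in every alternative run for them, with log2 folds of 0.22 to 0.43, -2.60 to -1.59 and 0.71 to 1.04. The 0.43 of Lgr4 is its sum at gene ends, which has a scaling of its own. Its regions there, 1 and 8, had log2 folds of 0.05 and 0.31 among all regions, and neither was called. Folds in that setting stand higher, as for Rnf43 below, so it is no separate support for the Lgr4 call. Lgr5 stood at -2.60 over regions at gene ends alone. At gene ends alone Rnf43 was at 0.10 (adjusted p = 0.390) and Znrf3 at 0.18 (adjusted p = 0.0790), with opposite signs to their full sums. Rnf43 has only region 1 there, at -0.23 among all regions, so the scaling of the end regions turned its sign. Znrf3 has regions 1 and 5 there, at 0.11 and -0.19 among all regions. Region 5 holds most of those counts, so the sign of the Znrf3 ends also rests on that scaling. Znrf3 was called lower with library size only (-0.18, adjusted p = 0.0169), with the signal trend removed (-0.19, adjusted p = 0.0131), with the region factors (-0.30, adjusted p = 4.39e-04) and without RANKL replicate 3 (-0.19, adjusted p = 0.0422). Leaving out each library in turn gave log2 folds of -0.19 to -0.12 for Znrf3. Of the 30 regions, 0 were higher and 7 lower when a fold of more than 1.5 was required, against 5.5% and 4.77% of all regions. When a library was left out, 2 to 5 were higher. Pathway calls with the region factors were 9 higher and 34 lower, against 16.2% and 38.5% of all genes. The cause of the other changes was not tested, except that a minimum fold asks for more. With experiment as a replicate block, 5 member regions were higher and 13 lower, no member call changed, and Dvl1 (-0.24, adjusted p = 0.0692) and Msi1 (0.22, adjusted p = 0.0547) lost theirs.

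Signs turned at regions not called: Lgr4 region 6 (0.063 with library size only, 0.079 with the trend removed, and 0.0022 to 0.0997 without RANKL replicate 1, RANKL replicate 2 or control replicate 1, with 0.045 for the first), Rnf43 region 1 (0.042 with the trend removed, 0.0019 with limma), Znrf3 region 1 (-0.0092 and -0.041) and Znrf3 region 5 (0.071 and 0.046). Among pathway genes signs turned with regions within 10 kb and at gene ends for Wnt7b (1.17 and 1.31), Tle3 (-0.17 and -0.44) and Olfm4 (-1.14 and -1.001), and at gene ends for Ryk (-0.20) and Axin2 (-0.047). Library size alone moved the median of all regions to 0.153. RANKL libraries were shallower, which limits regions near 10 CPM or less, among them Lgr6 and Lgr5 regions 5 and 8.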

Other observations

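Genes beside the members, chosen after their values were seen, did not share 1 direction with them. Beside Lgr4, Ccdc34 at 3.24 kb was called higher on the gene-level scale (log2 fold 0.16 ± 0.06, edgeR adjusted p = 0.0137). That fold is about the 0.15 by which the gene-level scale stands above the scale of the regions. Lin7c, 16.7 kb from Lgr4, had -0.06 (adjusted p = 0.574). Beside Lgr5, Zfc3h1, 17.5 kb from its lower-coordinate end, had a log2 fold of -0.50 ± 0.08 (edgeR adjusted p = 8.85e-08), while Tspan8, 229 kb beyond its upper end, held 282 ± 4.69 CPM with RANKL and 174 ± 5.73 CPM in controls (SD, n = 3 each; log2 fold 0.70 ± 0.06, adjusted p = 1.85e-18). On the gene-level scale Kremen1 and Xbp1, which flank Znrf3, were lower by log2 folds of -0.50 (adjusted p = 2.02e-05) and -0.39 (adjusted p = 5.94e-09), although the Znrf3 sum itself was not called. Ube2t, 9.12 kb from Lgr6, was lower (-0.55 ± 0.12, adjusted p = 5.94e-05) where Lgr6 was higher, and Ptpn7 on its other side had 0.10 (adjusted p = 0.855). Hsf5 and Supt4a, which flank Rnf43, had log2 folds of 0.11 and -0.01 that were not called.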
